A study of Homo sapiens with 4 samples.

Results

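APC-associated regions that lay far from any annotated gene start were taken from the peak lists of an APC ChIP-seq experiment. A region belonged to this set when its annotation was intergenic, when its deposited distance to the nearest transcription start site (TSS) was over 50 kb, and when its annotation named no repeat element. In replicate 1, 584 of 6263 peaks (9.32%) met these terms, and in replicate 2, 911 of 8393 peaks (10.9%) did. They are called distal intergenic regions here. The repeat condition left out 212 peaks in satellites and 262 in other repeats in replicate 1, and 429 and 393 in replicate 2. Peaks in CpG islands were kept. HCT-116, an established human colon cancer line with wild-type APC and a mutant β-catenin that escapes degradation, gave all 4 samples, without treatment. These were 2 APC ChIP replicates, made with a polyclonal antibody against the C-terminal end of APC, and 2 matching inputs. Cells were fixed 24 h after seeding, in 1% formaldehyde for 10 min, each replicate pooled the yield of several parallel immunoprecipitations, and the replicates were prepared several months apart, so replicate and date cannot be told apart. The input libraries were not analysed here, and no read count, p-value or enrichment stood in the lists, so that depth was unknown and peak width in bp was the one size measure of a peak. P-values below describe the spread over regions, which are not independent replicates, and not the spread between cultures.

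The label was checked against GENCODE 44 on the same assembly. Only 30 of the 584 replicate 1 regions (5.14%) and 46 of the 911 replicate 2 regions (5.05%) lay within 50 kb of a protein-coding TSS in GENCODE. With all gene types counted, 441 (75.5%) and 656 (72.0%) did, and 202 (34.6%) and 281 (30.8%) lay inside the body of a long non-coding RNA gene. Inside a protein-coding gene body of GENCODE lay 53 replicate 1 regions (9.08%) and 68 replicate 2 regions (7.46%). Most regions were therefore far from protein-coding gene starts, but most were not far from every annotated transcript. A TSS of some GENCODE gene stood within 1 kb of 36 replicate 1 regions and 48 replicate 2 regions. Members just inside the distance limit were regions at 50039 bp from MRPL33 and 50211 bp from LIF in replicate 1, and just outside it lay regions at 49566 bp from SLC2A1 and 49572 bp from RASD2. In replicate 2 the innermost pair lay 50139 bp from MRPL33 and 50149 bp from PRSS23, and the outermost pair 49948 bp from ANKRD10 and 49699 bp from SLC4A7.

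Long intervals without protein-coding genes, often called gene deserts, commonly carry distal enhancers, which act on promoters over large distances. AP-1, a dimer of FOS and JUN family proteins, is a common occupant of enhancers and responds to growth factor and MAPK signaling. TCF7L2 is the main DNA-binding partner of β-catenin in colon cells, and WNT target genes are controlled through it. APC is best known outside the nucleus, where it helps to mark β-catenin for destruction.

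The central 200 bases of 6 of the 12 widest regions found in both replicates are shown first, because their sequences carry the pattern that the motif counts below summarise. Positions are hg19, and each line is named by the protein-coding genes on either side. Capitals mark matches to the AP-1 motif (TGACTCA or TGAGTCA) or the TCF7L2 motif (AACAAAG or ATCAAAG or TACAAAG or TTCAAAG) on either strand. The IFNE to MTAP region held both motifs, the AREGB to BTC region an AP-1 match, the SLC4A3 to EPHA4 and KITLG to DUSP6 regions a TCF7L2 match, and the last 2 neither within the printed bases.
IFNE to MTAP region, chr9:21684948-21685147, plus strand: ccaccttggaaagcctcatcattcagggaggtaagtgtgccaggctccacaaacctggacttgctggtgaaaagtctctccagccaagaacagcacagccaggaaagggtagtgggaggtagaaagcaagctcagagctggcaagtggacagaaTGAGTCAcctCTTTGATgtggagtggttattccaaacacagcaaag
AREGB to BTC region, chr4:75560726-75560925, plus strand: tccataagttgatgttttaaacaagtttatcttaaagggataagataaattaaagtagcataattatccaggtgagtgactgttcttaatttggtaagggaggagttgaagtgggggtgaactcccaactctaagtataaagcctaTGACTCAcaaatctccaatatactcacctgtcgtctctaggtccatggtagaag
SLC4A3 to EPHA4 region, chr2:220563767-220563966, plus strand: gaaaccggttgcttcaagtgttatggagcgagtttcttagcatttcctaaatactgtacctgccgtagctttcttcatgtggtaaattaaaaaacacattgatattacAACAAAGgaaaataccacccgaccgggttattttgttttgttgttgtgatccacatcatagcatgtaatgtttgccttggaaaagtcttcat
KITLG to DUSP6 region, chr12:89345955-89346154, plus strand: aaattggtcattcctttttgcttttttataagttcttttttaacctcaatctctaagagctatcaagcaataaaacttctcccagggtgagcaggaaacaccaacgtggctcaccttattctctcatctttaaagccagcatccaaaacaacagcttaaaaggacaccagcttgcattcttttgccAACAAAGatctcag
HS3ST1 to RAB28 region, chr4:11507201-11507400, plus strand: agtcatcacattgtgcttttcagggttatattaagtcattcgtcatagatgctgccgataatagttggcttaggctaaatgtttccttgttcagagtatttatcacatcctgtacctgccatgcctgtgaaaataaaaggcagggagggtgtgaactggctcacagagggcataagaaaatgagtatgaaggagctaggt
WLS to RPE65 region, chr1:68850430-68850629, plus strand: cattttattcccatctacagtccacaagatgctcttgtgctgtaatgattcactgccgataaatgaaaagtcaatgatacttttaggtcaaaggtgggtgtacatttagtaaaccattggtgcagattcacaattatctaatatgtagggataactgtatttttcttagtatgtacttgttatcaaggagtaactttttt

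Replicate 2 recovered most of the replicate 1 regions. A peak was called shared when a peak centre of the other replicate lay under 400 bp away. Of the 584 replicate 1 distal regions, 455 (77.9%, 95% exact Clopper-Pearson interval 74.3 to 81.2) were shared, against 63.6% of all replicate 1 peaks. Of the 911 replicate 2 regions, 436 (47.9%, 44.6 to 51.2) were shared, against 45.5% of all replicate 2 peaks. These intervals cover counting error only. Shared centres lay a median of 64 bp apart in replicate 1 and 62 bp in replicate 2. For 428 of the 455 shared replicate 1 regions the partner was itself a distal intergenic region outside repeats, and for the other 27 it was annotated to a repeat. The 455 regions had 436 distinct partners, since 19 replicate 2 peaks each matched more than 1 narrower replicate 1 peak. The distances that the authors deposited agreed to within 2 bp for all 584 regions and gave the same 455 shared ones. The shared region with the widest separation of centres lay at 398 bp, downstream of AREG, and the first that failed the limit lay at 410 bp, near MIR8082.

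Compared with intergenic peaks 5 to 50 kb from a TSS, distal regions were shared more often in replicate 1, 77.9% against 68.4% (420 of 614), with an odds ratio of 1.63 (95% CI 1.25 to 2.13, Fisher's exact test, two-sided, exact adjusted p = 0.000345). In replicate 2 the shares were 47.9% and 51.7% (399 of 772, odds ratio 0.858, 95% CI 0.705 to 1.04, exact adjusted p = 0.129). Compared with promoter peaks, the replicates went in opposite directions. In replicate 1, 77.9% of distal regions and 64.7% of 1880 promoter peaks were shared (odds ratio 1.92, exact adjusted p = 5.5e-09), whereas in replicate 2 the shares were 47.9% and 57.1% of 2038 (odds ratio 0.689, exact adjusted p = 6.87e-06). When each list was kept to the wider 50% of its peaks, the replicate 2 order turned round, to 60.0% of distal regions and 50.4% of promoter peaks (exact adjusted p = 0.00105). The order of the sets in replicate 2 thus changed when the narrower peaks of both lists were left out. This cut also took away possible partners, so the change cannot be assigned to 1 list.

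**Figure D1:**
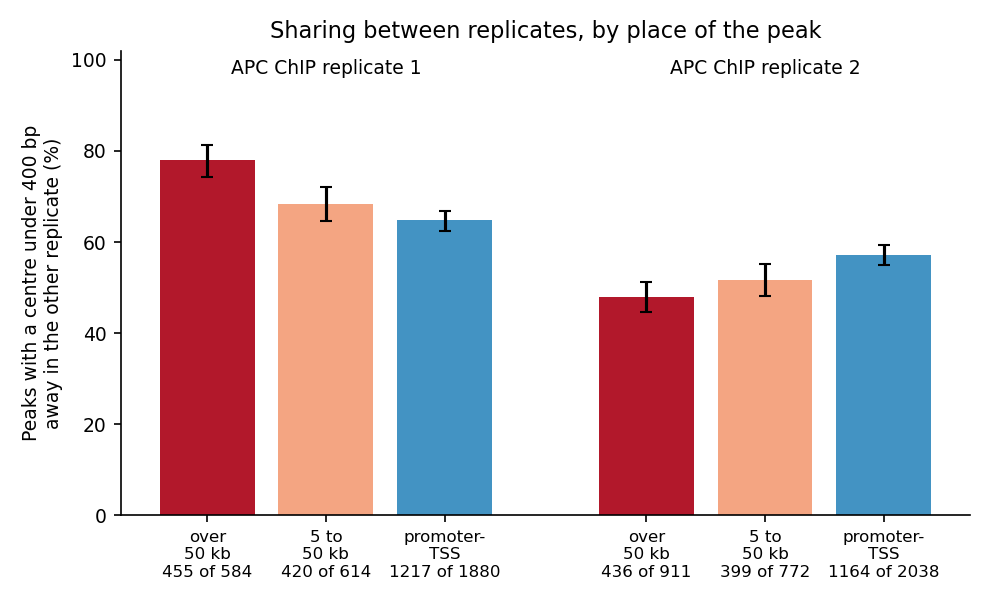
Percentage of peaks with a centre under 400 bp away in the other replicate (vertical axis), for distal intergenic regions over 50 kb from a TSS, intergenic peaks 5 to 50 kb away and promoter-TSS peaks; bars are shares, lines exact 95% intervals, and the counts stand under each bar. The distal share is the highest of the 3 sets in replicate 1, at 77.9%, and the lowest in replicate 2, at 47.9%.

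Shared regions were wider than those found in 1 replicate. In replicate 1, widths of distal regions ran from 92 to 1942 bp, with medians of 472 bp for shared and 250 bp for unshared ones. In replicate 2 the range was 117 to 2638 bp, with medians of 712 and 409 bp (permutation p = 1e-05 in each replicate, two-sided, the smallest that 100000 permutations can give). Across the 455 shared regions the replicate 2 peak was the wider in 420 (92.3%), with a median ratio of 1.48 and medians of 472 bp in replicate 1 and 720 bp in replicate 2. Widths in the replicates moved together as a description over these regions (Pearson's r = 0.610 on log10 widths, Spearman's rho = 0.652, n = 455). The set as a whole was wider than promoter peaks in replicate 1, with medians of 418 and 368 bp (permutation test, adjusted p = 4e-05), and narrower in replicate 2, with medians of 538 and 573 bp (permutation adjusted p = 0.00122). Against intergenic peaks 5 to 50 kb away the medians were 418 and 386 bp in replicate 1 (permutation adjusted p = 0.0453) and 538 and 558 bp in replicate 2 (permutation adjusted p = 0.131). In the wider 50% of the replicate 2 list the order turned round, with medians of 742 bp for distal regions, 714 bp for nearer intergenic peaks and 671 bp for promoter peaks (permutation adjusted p = 2e-05 against promoters).

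The 12 widest shared regions, by mean width rank over both replicates, lay beside genes of varied function. The first lay 71574 bp from SLC4A3, an anion exchanger gene, in the gap to EPHA4, an ephrin receptor gene, and measured 1023 bp in replicate 1 and 1963 bp in replicate 2. The second lay beside HS3ST1 and measured 994 and 1789 bp. Regions beside UTRN, which encodes utrophin (1224 and 1422 bp), FAM3C, a secreted protein gene (1207 and 1338 bp), and RPE65, the retinoid isomerase gene (976 and 1304 bp), were also among them. The RPE65 region lay in the gap to WLS, whose product carries WNT ligands out of the cell. The region upstream of MTAP, a gene of methionine salvage, had 901 bp in replicate 1 and 2385 bp in replicate 2, the widest partner of any shared replicate 1 region. That beside GSDMC, a gasdermin gene at the far end of the desert from MYC, had 1139 and 1596 bp, and that beside AZIN1, an antizyme inhibitor gene, had 1802 and 1362 bp and lay in a CpG island. The others were assigned to KRR1, TRIB1, AREG and LOC728084. Deposited distances from the assigned start ran up to 606366 bp, at UTRN. From the nearest GENCODE TSS of any gene type, the 12 regions lay 159 bp (KRR1) to 75479.5 bp (LOC728084) away. Within their central 300 bp, 5 of the 12 held an AP-1 match and 5 a TCF7L2 match, and both motifs stood together in those beside SLC4A3, UTRN and MTAP.

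**Figure D2:**
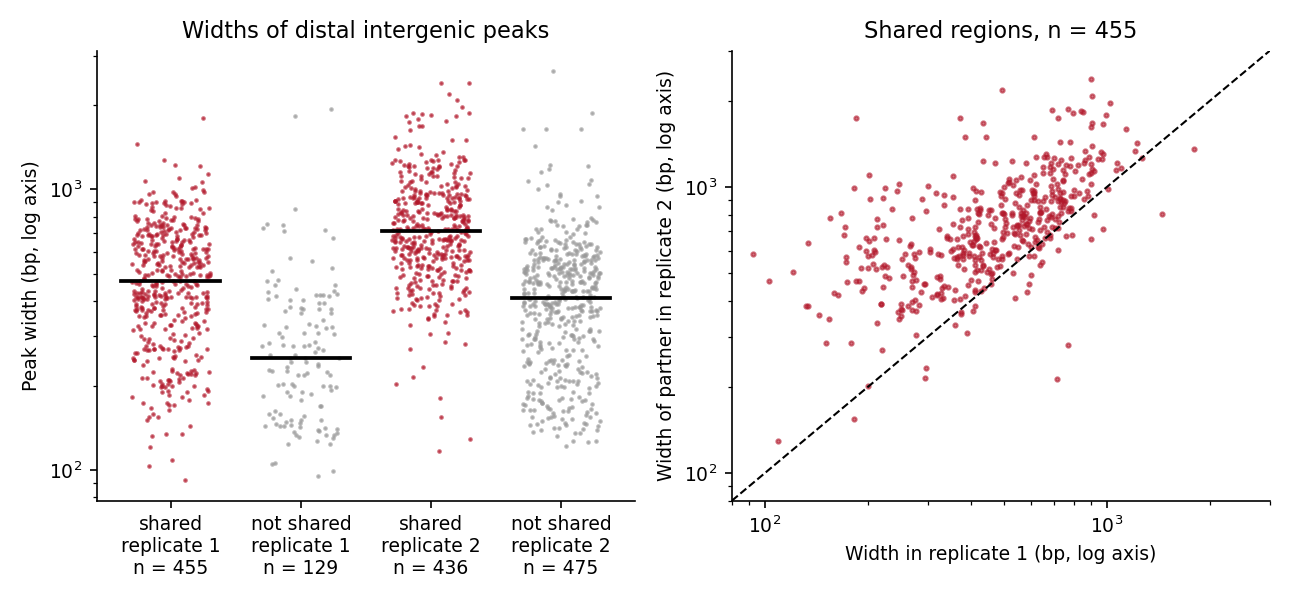
Left, width in bp (log axis) of each distal intergenic region by replicate, shared left of not shared, with a black line at the median. Right, width in replicate 1 (horizontal, log axis) against width of the partner in replicate 2 (vertical, log axis) for the 455 shared regions, with a dashed line of equal width, above which 420 of them lie.

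No difference in sharing by distance passed the test in the full lists. The median distance to a TSS was 121103 bp in replicate 1 and 122518 bp in replicate 2, and the farthest regions lay 1426734 and 1335391 bp away. In replicate 1, 74 of 91 regions over 250 kb from a TSS (81.3%) and 169 of 226 regions at 50 to 100 kb (74.8%) were shared (odds ratio 1.47, 95% CI 0.778 to 2.88, exact adjusted p = 0.484). In replicate 2 the shares were 44.4% of 160 and 47.8% of 339 (odds ratio 0.872, 95% CI 0.586 to 1.29, exact adjusted p = 0.502). With each list kept to its wider 50%, the replicate 2 shares were 74.6% of 63 and 57.4% of 183 (exact adjusted p = 0.0328). With repeats other than satellites kept, the replicate 1 shares turned to 61.4% and 69.8% (exact adjusted p = 0.0909). Even over 500 kb from a TSS, 29 of 34 replicate 1 regions and 26 of 57 replicate 2 regions were shared. Among the 5 shared regions farthest from a TSS, 4 are described. Those upstream of LPHN2, an adhesion receptor gene, were 1168429 and 1164642 bp away and measured 462 and 268 bp in replicate 1, with partners of 501 and 630 bp in replicate 2. The other 2, assigned to NR2F1-AS1 at 1018652 and 1010007 bp, measured 1071 and 978 bp in replicate 1 and 1216 and 716 bp in replicate 2. All distances above are the deposited ones. The nearest GENCODE TSS of any gene type lay 4414 and 627 bp from the LPHN2 regions. For the NR2F1-AS1 regions it lay 102157.5 and 93513 bp away. Each of the 4 held at least 1 TCF7L2 match in its central 300 bp, and 2 also held an AP-1 match.

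Shared regions were then placed in the gaps between protein-coding gene bodies of GENCODE. Of the 455, 416 lay in such a gap, and 226 of these (54.3%) lay in gaps of at least 500 kb. The median gap length was 524 kb. Of all distal regions in a gap, shared or not, 279 of 531 (52.5%) in replicate 1 and 452 of 843 (53.6%) in replicate 2 lay in gaps of that length. Regions were chosen by distance from a TSS, so long gaps are no finding. When bodies of all gene types were used, 265 shared regions lay in a gap and 5 of them in one of at least 500 kb, so that the deserts were protein-coding deserts crossed by non-coding genes. The shared regions were spread over 224 gaps, of which 139 held a single shared region, while 14 gaps with at least 5 held 100 of the 455. The map of the 10 richest gaps shows that these clusters differed in how much of their gap they took up. The shared regions between KRR1 and PHLDA1 spanned 342 kb of 514 kb, and those between FASLG and TNFSF18 172 kb of 372 kb. Those between TRIB1 and LRATD2 spanned 57.3 kb of 1114 kb.

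**Figure D3:**
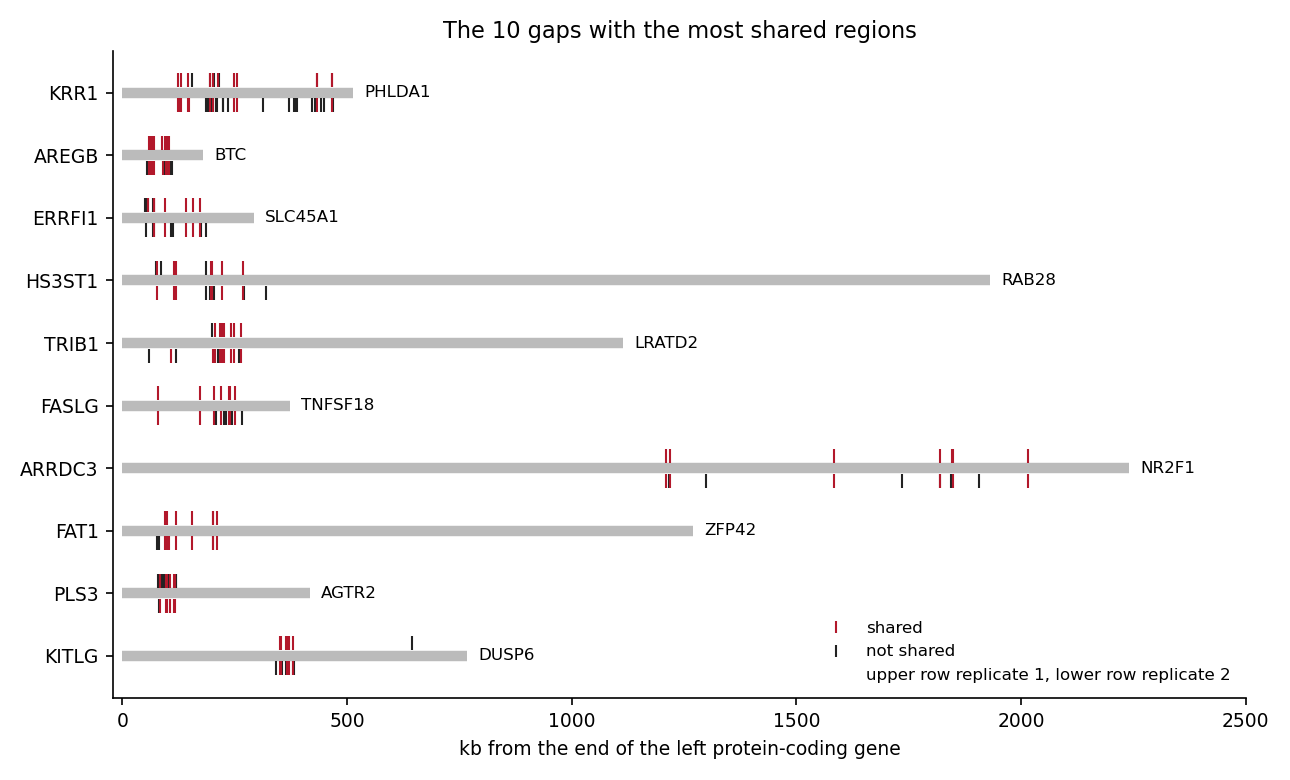
The 10 gaps between protein-coding genes with the most shared replicate 1 regions, drawn to scale in kb from the end of the left gene (horizontal axis), with the left gene named on the axis and the right gene at the end of each grey bar. Ticks above the bar are distal regions of replicate 1 and ticks below it those of replicate 2, red where shared and black where not. The KITLG to DUSP6 cluster of 6 spans 28.8 kb of 766 kb, whereas the 7 regions between ARRDC3 and NR2F1 span 807 kb.

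The gap between KRR1, a gene of ribosome assembly, and PHLDA1, a growth factor-induced gene, held the most regions (chromosome 12, gap of 514 kb). It had 16 distal regions in replicate 1 and 33 in replicate 2, and 12 of the 16 were shared, with 10 distinct partners. Widths of the 12 ran from 182 to 976 bp in replicate 1, median 433 bp, and those of their partners from 538 to 2194 bp, median 983 bp. The widest in replicate 1 lay at 76117993 to 76118967 (976 bp, and 1664 bp in replicate 2), and the one nearest to the start of PHLDA1 at 76371921 to 76372101 (182 bp and 991 bp). In this gap 7 of 12 held a TCF7L2 match and 4 an AP-1 match.

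All 10 replicate 1 regions between AREGB and BTC were shared, with 9 distinct partners (chromosome 4, gap of 179 kb). Replicate 2 had 17 distal regions in this gap, and 8 of them were shared, so not every partner was itself a distal region. BTC encodes betacellulin and AREG amphiregulin, both ligands of the EGF receptor, and AREGB is the second copy of AREG in this genome build. The 10 regions lay within 43.2 kb and were wide, from 385 to 1269 bp in replicate 1 (median 718 bp) and from 854 to 1824 bp in replicate 2 (median 1260 bp). The widest in replicate 1 is the printed one, at 75560192 to 75561459, with 1269 bp in replicate 1 and 1267 bp in replicate 2. AREG and AREGB are near-identical copies, and the regions lay outside both gene bodies.

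ERRFI1 encodes a feedback inhibitor of the EGF receptor. Its gap to SLC45A1, a sugar transporter gene, was 292 kb long (chromosome 1) and held 12 replicate 1 and 12 replicate 2 regions. Of the replicate 1 regions 9 were shared, with 7 distinct partners, at widths of 203 to 759 bp in replicate 1 and 674 to 1261 bp in replicate 2. AP-1 matches stood in 7 of the 9. Between KITLG, the ligand of the KIT receptor, and DUSP6, an ERK phosphatase, 6 of 7 replicate 1 regions were shared (chromosome 12, gap of 766 kb). They measured 276 to 905 bp in replicate 1 and 474 to 2090 bp in replicate 2. The widest, at 89345603 to 89346506, is among the printed sequences. None of these 6 lay closer than 391881 bp to the start of DUSP6, and the authors' annotation assigned them to the non-coding LOC728084.

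Between TRIB1, a pseudokinase of the MAPK pathway, and LRATD2, 7 of 8 replicate 1 regions were shared, and all 7 lay within 57.3 kb of a gap of 1114 kb. Widths were 504 to 906 bp in replicate 1 and 911 to 1831 bp in replicate 2. The widest distal region of replicate 2 also lay here, at 2638 bp, but the nearest replicate 1 centre was 1746 bp away, so that it counted as unshared. The gap from HS3ST1, a heparan sulfate sulfotransferase, to RAB28 was 1932 kb long and held 7 shared of 11 replicate 1 regions, at 371 to 994 bp. In 3 further gaps all 7 replicate 1 regions were shared. These were FASLG to TNFSF18 (both cytokine ligands of the TNF family, 201 to 863 bp), FAT1 to ZFP42 (FAT1 is a giant cadherin and ZFP42 a zinc finger gene of pluripotent cells, 367 to 897 bp) and ARRDC3 to NR2F1 (an arrestin-domain gene and a nuclear receptor, 197 to 1452 bp). Replicate 2 held 14, 12 and 12 distal regions in these gaps.

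Across all 20149 protein-coding genes, 429 (2.13%) bordered a gap with a shared distal region, and 410 of 4621 (8.87%) did so among genes that border a gap of at least 100 kb. Since genes beside wide gaps can collect more regions, the share of 8.87% is the closer comparison, and the counts below were not tested. The gene lists were written with earlier results of these data known, so their counts are no independent evidence. In the list of MAPK feedback genes, 9 of 19 bordered such a gap, and these were 9 of the 13 beside a wide gap. PHLDA1 had 12 shared regions in its gaps, ERRFI1 9, TRIB1 7, DUSP6 6, and DUSP4, DUSP5 and SPRY1 2 each, and SPRY2 and SPRY4 had 1 each. These are counts per gap and not assignments to the gene. The authors' annotation assigned most of the 12 regions counted for PHLDA1 to KRR1, at the other end of the gap. It assigned some of those counted for ERRFI1 to SLC45A1, and a region counted for TRIB1 to LINC00861. All 6 counted for DUSP6 were assigned to LOC728084. The region that stood beside SPRY2 was 3278054 bp from its start. Of 7 EGF receptor ligands, 2 bordered such a gap (2 of the 3 beside a wide gap), BTC with 10 regions and AREG with 1. The authors' annotation assigned the 10 regions counted for BTC to AREG, at deposited distances of 69546 to 112768 bp. The nearest of them to BTC lay 126373.5 bp from its start.

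Intestinal epithelium transcription factors did so in 5 of 22 cases, 5 of 15 beside a wide gap. SOX9, a regulator of crypt base cells, had 6 shared regions over its 2 gaps, of which the nearest lay 218299 bp from its start at chromosome 17, 70335032 to 70335887 (857 bp in replicate 1 and 1213 bp in replicate 2). KLF4, a factor of differentiated epithelium, had 3, the nearest 510994 bp away. NR5A2 had 2, and HES1 and PROX1 had 1 each. WNT targets did so in 3 of 20 cases, 3 of 12 beside a wide gap, namely SOX9, MYC with 3 regions and PROX1. Of the MYC regions, 2 lay in its gap to GSDMC, no closer than 1950384 bp to the start of MYC. MYC was 1 of the loci by which the authors set their threshold, so it is no independent case.

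Developmental transcription factors, many of which lie beside wide gaps, gave 8 of 40, and 8 of the 39 beside a wide gap. NR2F1 had 7 regions, TFAP2A 4, BCL11B 3 and SOX2 2. YAP/TEAD targets gave 2 of 18, and 2 of the 9 beside a wide gap, TGFB2 with 5 regions and F3, the tissue factor gene, with 1. Cadherins and protocadherins gave 3 of 31 and 3 of the 28 beside a wide gap, which was close to the 8.87% of all such genes. FAT1 accounted for 7 regions, PCDH7 for 3 and CDH2 for 1. No gene of the AP-1 family, 0 of 14, bordered such a gap, and 5 of these 14 stood beside a wide gap. SOX9 and PROX1 stand in more than 1 list.

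AP-1 and TCF7L2 matches were the most frequent of the 8 motifs searched. In the central 300 bp, taken at replicate 1 coordinates, 238 of the 455 shared distal regions (52.3%) held an AP-1 match (TGACTCA or TGAGTCA, either strand), against 41.9% of 420 shared intergenic peaks 5 to 50 kb from a TSS (odds ratio 1.52, 95% CI 1.15 to 2.00, Fisher's exact test, two-sided, exact adjusted p = 0.00308 over 16 tests) and 5.01% of 1217 shared promoter peaks (odds ratio 20.8, exact adjusted p = 9.56e-100). A TCF7L2 match stood in 215 (47.3%), against 36.4% of the nearer intergenic peaks (odds ratio 1.56, exact adjusted p = 0.00205) and 7.72% of promoter peaks (odds ratio 10.7, exact adjusted p = 4.29e-68). Of all 3984 shared replicate 1 peaks, 30.5% held an AP-1 and 28.4% a TCF7L2 match. Windows 5 kb to either side of the same regions held an AP-1 match in 5.71% and a TCF7L2 match in 26.3% of 910 cases, so that the short TCF7L2 motif was common beside the regions too. Median GC content was 43.0% in distal regions, 40.3% in these flanks, 49.2% in nearer intergenic peaks and 65.3% in promoter peaks (permutation p = 1e-05 against each peak set, the smallest possible). The part of base composition in the differences between peak sets was not tested. The differences from nearer intergenic peaks were lost in a 100 bp window (AP-1 22.4% and 18.8%, exact adjusted p = 0.306, and TCF7L2 18.9% and 18.6%, exact adjusted p = 0.993). With replicate 1 left out, all 911 replicate 2 regions held AP-1 in 43.5% against 39.4% of nearer peaks (exact adjusted p = 0.0979) and TCF7L2 in 37.9% against 33.4% (exact adjusted p = 0.0694). In the wider 50% of the lists AP-1 stood in 47.9% against 43.3% (exact adjusted p = 0.408). The differences from promoter peaks passed the test in all of these settings.

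Other motifs separated distal regions from promoters in both directions. TEAD factors, the DNA-binding partners of YAP, had a match (GGAATG) in 25.1% of distal regions, 21.7% of nearer intergenic peaks (exact adjusted p = 0.263) and 10.4% of promoter peaks (exact adjusted p = 9.75e-13). The motif of CDX factors, which set intestinal identity (TTTATGG or TTTATTG), was found in 18.9%, against 10.2% (exact adjusted p = 0.000683) and 3.53% (exact adjusted p = 5.17e-22), with 15.7% in the flanks. The FOX motif (TGTTTAC) had a match in 8.57%, against 6.19% (exact adjusted p = 0.211) and 2.71% (exact adjusted p = 2.2e-06). Matches of ETS (CCGGAAG), typical of promoters, stood in 1.54% of distal regions, against 5.24% (exact adjusted p = 0.00308) and 27.0% (exact adjusted p = 8.63e-41). SP1, a GC box factor, showed 0.659%, against 5.48% (exact adjusted p = 4.93e-05) and 25.7% (exact adjusted p = 2.64e-43). The CTCF core was in 0 of 455 distal regions, which allows a share of up to 0.659% by a limit of 3 counts and 0.807% by the exact 95% interval, against 4 of 420 and 8 of 1217 (exact adjusted p = 0.0648 and 0.134).

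**Figure D4:**
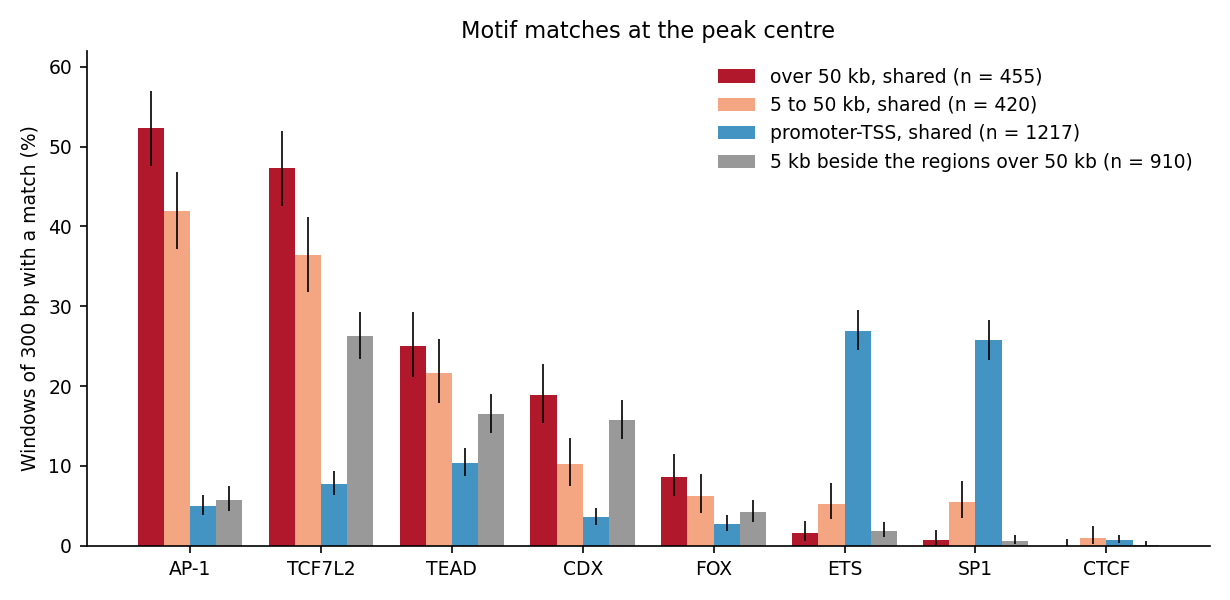
Percentage of 300 bp windows with a match to each of 8 motifs (vertical axis), for shared distal intergenic regions, shared intergenic peaks 5 to 50 kb from a TSS, shared promoter-TSS peaks and windows 5 kb beside the distal regions; lines are exact 95% intervals. AP-1 reaches 52.3% in distal regions and 5.01% at promoters, and ETS 1.54% and 27.0%.

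AP-1 and TCF7L2 matches occurred together in 103 shared distal regions (22.6%), AP-1 without TCF7L2 in 135 and TCF7L2 without AP-1 in 112, and 105 (23.1%) held neither. A TCF7L2 match was present in 43.3% of regions with AP-1 and in 51.6% of regions without, a difference that was not tested. None of the 8 motifs was found in 50 regions. By distance, AP-1 matches stood in 47.3% of shared regions at 50 to 100 kb, 56.1% at 100 to 250 kb, 42.2% at 250 to 500 kb and 69.0% of the 29 over 500 kb, while TCF7L2 matches stood in 41.4%, 45.8%, 60.0% and 72.4% of the same bins. Those are the shares at replicate 1 coordinates. For shared replicate 2 regions the TCF7L2 shares were 39.5%, 41.4%, 57.8% and 57.7%, the last of 26 regions. The AP-1 shares there were 44.4%, 54.7%, 42.2% and 69.2%. These shares by distance were not tested.

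Matches in shared regions were concentrated at the peak centre. Within 100 bp of the centre, shared distal regions had 25.2 AP-1 matches per 100 regions and 100 bp of sequence, against 2.99 at 500 to 1000 bp, and 22.5 TCF7L2 matches, against 9.96. Regions of replicate 2 alone had 19.5 AP-1 matches within 100 bp and 2.19 at 500 to 1000 bp, and regions of replicate 1 alone had 12.02 and 3.10. TCF7L2 matches in regions of replicate 1 alone were not highest at the centre, with 10.9 within 100 bp and 13.6 at 100 to 200 bp. By share, AP-1 was found in 52.3% of shared and 27.9% of unshared regions in replicate 1 (odds ratio 2.83, 95% CI 1.82 to 4.47, exact adjusted p = 1.62e-06) and in 50.5% and 37.1% in replicate 2 (odds ratio 1.73, 95% CI 1.32 to 2.27, exact adjusted p = 5.83e-05). The difference was smaller in the settings given next, which kept wider peaks, and the part of width in it was not tested. In the wider 50% of each list the shares were 47.9% and 43.5% in replicate 1 and 44.6% and 47.0% in replicate 2 (exact adjusted p = 0.634 in each). Partners were then sought among the wider peaks only. Among distal regions at or above their own median width in replicate 2 the shares were 47.1% and 40.9% (exact adjusted p = 0.250). The replicate 1 shares under that last limit are not reported here.

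**Figure D5:**
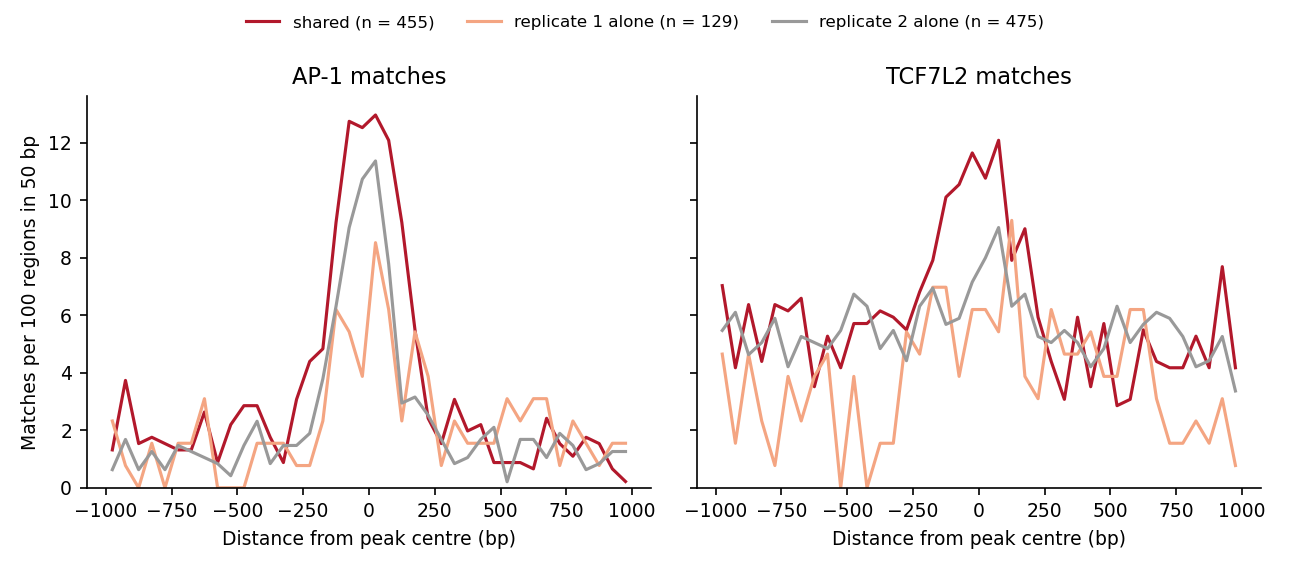
AP-1 matches (left) and TCF7L2 matches (right) per 100 regions in bins of 50 bp (vertical axis) by distance from the peak centre in bp (horizontal axis), for shared distal regions (n = 455) and regions of replicate 1 alone (n = 129) or replicate 2 alone (n = 475). Both motifs peak at the centre of shared regions, and AP-1 falls to a lower level beyond it than TCF7L2 does.

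A small number of distal regions lay in local sequence copies although their annotation named no repeat. In replicate 1, 30 regions had at least 50% of their central window, in words of 25 bases, repeated within 50 kb. The shared ones among them numbered 9 (30.0%, 95% CI 14.7 to 49.4), with 446 of 554 (80.5%) among the others. In replicate 2 there were 13, of which 10 were shared, against 426 of 898 others (47.4%). This property was examined after the values had been seen, and its part in sharing was not tested. Of the 30, 15 lay between PLS3, an actin-bundling protein gene, and AGTR2, an angiotensin receptor gene (chromosome X, 114964269 to 115004503), an interval known to hold the DXZ4 macrosatellite. Each of these 15 windows was repeated over 100% of its length, and their centres were a median of 2815 bp apart. They were narrow, at 143 to 455 bp, lay in CpG islands by the authors' annotation, and 6 were shared. Replicate 2 had 7 regions there, of 359 to 737 bp. None of the 6 shared windows held an AP-1 or TCF7L2 match, and this was the one gap of the 10 richest without either.

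Another 5 of the 30 were CpG island peaks of replicate 1 upstream of FCGR2A, an Fc receptor gene (chromosome 1, 161410502 to 161425658). Their widths were 711, 744, 1824, 731 and 1942 bp, and the last is the widest distal region of that replicate. None was shared, and the nearest replicate 2 centre lay 18911 bp or more away. All 5 held the core of the B box (GGTTCGA, either strand), an internal promoter element of tRNA genes that recruits RNA polymerase III factors. It was found in 0 of 40 other CpG island regions, 2 of 539 regions outside CpG islands and 35 of 1880 promoter peaks of the replicate. This search took whole peaks, not the central 300 bp, and the 5 peaks were wide. Median widths were 323 bp in all CpG island regions of the replicate, 424 bp in regions outside CpG islands and 368 bp in promoter peaks. The part of width in these counts was not tested. The 9 matches in these 5 peaks lay in 4 distinct windows of 80 bases, and 1 match from each of 2 peaks is printed here, on the strand of the match, with the core in capitals. They were chosen after their values had been seen.
FCGR2A peak 1, chr1:161410610-161410689, minus strand: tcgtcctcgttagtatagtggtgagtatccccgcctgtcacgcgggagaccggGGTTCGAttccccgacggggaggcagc
FCGR2A peak 2, chr1:161413090-161413169, plus strand: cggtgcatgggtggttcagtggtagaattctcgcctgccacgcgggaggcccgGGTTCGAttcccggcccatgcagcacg

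Of the CpG island regions as a group, 17 of 45 (37.8%, 95% CI 23.8 to 53.5) were shared in replicate 1, against 438 of 539 other distal regions (81.3%), and 15 of 27 (55.6%, 35.3 to 74.5) in replicate 2, against 421 of 884 (47.6%). These counts were not tested. Of the 45 in replicate 1, 20 were the PLS3 and FCGR2A regions.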

How the data were processed

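APC ChIP-seq was performed on 2 biological replicates of HCT-116 cells, each with its own pre-cleared input. The authors aligned single-end reads of 50 bp to hg19 with BWA, ran MACS2 separately on the replicates with the matching input as control, tuned the score threshold to retain the AXIN2, DKK1 and MYC loci, and annotated peaks with RefGene. Tool versions: not given in the sources used here. Whether the score threshold bears on the number of narrow peaks in each list was not tested. The lists that the authors deposited give positions, widths and distances in bp. The column named as a peak score equals the end minus the start plus 2, and was read as width. A table of centre distances was deposited as well. No column belonged to another sample. Read depth was unknown, so no precision could be derived from it, and the inputs entered only through the authors' peak calling.

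Members and gene lists were chosen with earlier results of these data known. Named genes were those that flank the 12 shared regions with the lowest mean width rank, the 10 gaps with the most shared regions, the 5 shared regions farthest from a TSS, and up to 4 members of each of 8 gene lists with the most shared regions. For the MAPK feedback, intestinal and developmental lists further members were named after their counts were seen. Shares were compared by Fisher's exact test (two-sided), medians by permutation (100000 resamples), both with Benjamini-Hochberg adjustment within each family of 2, 4 or 16 tests and a threshold of 0.05. The 8 motifs were searched on both strands of the central 300 bp (GRCh37, the same assembly), and the B box core over whole peaks. Gaps were taken between merged GENCODE 44 gene bodies. Of the 5 farthest regions, 1 is not reported here, and sequences are printed for a selection of regions. The functions were tested on simulated data. Alternatives were other limits for sharing, width and distance limits, repeats, windows, gene sets and leaving out a replicate. Python 3.11.15, scipy 1.17.1, pandas 2.3.3, numpy 2.4.6, pysam 0.24.0 and matplotlib 3.10.9 were used.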

Additional observations from a re-analysis of the deposited data

How the results depend on the processing

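Of 363 values recomputed for 42 results under 16 alternative settings, 3 of which were chosen after seeing the data, 323 kept their direction and side of the threshold or moved by less than 1.5 times. Differences below are distal minus comparison set, or shared minus unshared, in percentage points for shares and bp for widths, and where no cause is given it was not tested. With each list kept to its wider 50%, the replicate 2 sharing difference became 5.43 points from nearer intergenic peaks and 9.62 from promoter peaks, the replicate 2 width differences became 28 and 71 bp, and the replicate 1 width difference from nearer peaks was 29 bp (permutation adjusted p = 0.108). Sharing over 250 kb against 50 to 100 kb in replicate 2 turned to 17.2 points (exact adjusted p = 0.0328). The AP-1 excess over nearer peaks was 4.52 points (exact adjusted p = 0.408), the AP-1 difference between shared and unshared regions was 4.38 points in replicate 1 and -2.42 in replicate 2, and 276 genes bordered a gap with a shared region. Among regions at or above their median width that last AP-1 difference in replicate 2 was 6.17 points. With members over 100 kb from a TSS, widths differed from nearer peaks by 27 bp in replicate 1 (permutation adjusted p = 0.143) and -33 bp in replicate 2 (permutation adjusted p = 0.0307). With repeats other than satellites kept, sharing in replicate 2 differed by -4.42 points from nearer peaks (exact adjusted p = 0.0359), widths by 17.5 and 11.5 bp in replicate 1 from nearer and promoter peaks and by -28 bp in replicate 2 from nearer peaks, and sharing by distance in replicate 1 turned to -8.44 points (exact adjusted p = 0.0909). In a window of 100 bp the excess over nearer peaks was 3.61 points for AP-1, 0.330 for TCF7L2 and -2.42 for TEAD. With all gene bodies 5, and with deserts of at least 1000 kb 128, shared regions lay in deserts, against 226, since both definitions are stricter. Leaving out a replicate means all members of the other list, and gave an AP-1 excess over nearer peaks of 4.09 to 9.62 points, a TCF7L2 excess of 4.45 to 11.9, a TEAD difference of -1.09 to 3.98, 279 to 452 regions in deserts and 519 to 775 bordering genes. Sharing and comparisons of shared with unshared regions need both lists and could not be given with a replicate left out. No paired analysis was possible because the peak lists hold no values for the inputs that carry the same numbers. Depth was unknown, so a region missing from a list cannot be called absent.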

Other observations

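Per 10 Mb, replicate 2 had 5.68 distal intergenic regions on chromosome 12, 5.33 on chromosome 8 and 4.60 on chromosome 4, and replicate 1 had 2.76, 3.14 and 2.93 on the same chromosomes. Single gaps weighed on these values. The KRR1 to PHLDA1 gap held 33 of the 76 replicate 2 and 16 of the 37 replicate 1 regions of chromosome 12. In replicate 2, AREGB to BTC held 17 of 88 on chromosome 4 and TRIB1 to LRATD2 14 of 78 on chromosome 8. Chromosome 19, which is rich in genes, had 0 in each replicate. Outside the local copies, the widest regions of replicate 1 that failed the sharing limit lay close to a replicate 2 peak. One assigned to MIR31HG measured 854 bp, with a replicate 2 centre 483 bp away, and one assigned to SLC9A7P1 measured 756 bp, with a centre 476.5 bp away, and each overlapped a replicate 2 peak. In all, 9 unshared replicate 1 regions and 6 unshared replicate 2 regions overlapped a peak of the other replicate.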
